A study of Homo sapiens with 80 samples.

Results

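Gene expression in low purity WTC11 cultures was compared between day 6 and day 8 of cardiomyocyte differentiation. WTC11 is a human induced pluripotent stem cell line. The RNA is described as poly(A) RNA and was sequenced with a stranded kit. The comparison took 8 of the 80 libraries of the study, 4 wells collected on each day, and used the authors' deposited table of TPM, a measure of transcript abundance that corrects for transcript length and library size. Of 43388 genes in the table, the 19946 with at least 1 TPM in at least 3 of the 8 wells were tested. Both groups came from a differentiation begun at passage 69, received the WNT activator CHIR99021 on day 0 and the WNT secretion inhibitor IWP2 on day 2, and were changed to B27 medium without insulin on day 4. From day 6 the medium contained B27 with insulin, so the 2 days of the comparison span the first exposure to insulin, and its effect cannot be told apart from that of time. High purity wells of day 6 (4 wells) and day 8 (3 wells) came from another WTC11 differentiation at passage 52 that had the same protocol. The classes had been assigned on day 16, from the share of cells positive for the heart muscle protein troponin T. Wells within a class belong to 1 differentiation, so every p-value below measures the spread between wells, and purity, passage and differentiation cannot be told apart.

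In this protocol WNT signalling is first raised to form mesoderm and then lowered so that mesoderm enters the cardiac lineage. Cardiac progenitors switch on transcription factors such as NKX2-5 before they assemble sarcomeres, the contractile units of muscle, from troponins, myosins and Z-disc proteins. Cultures can also hold epicardial, stromal, smooth muscle and endodermal cells, each with marker genes of its own. In bulk RNA, a change in the number of cells of a type and a change in RNA per cell cannot be told apart.

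A gene was called when its limma adjusted p was under 0.05 and its log2 fold change was at least 1 in size. By this rule 864 genes changed, which is 4.33% of those tested. A total of 521 genes rose (2.61%) and 343 fell (1.72%), and 773 of the called genes had TPM values that did not overlap between the days. Across all genes tested, 28.8% had wells that did not overlap, 15.4% with higher values on day 8 and 13.4% with lower ones. Median log2 fold change over all genes was -0.0022. Low abundance limits part of the list, since 119 called genes had at most 10 reads in every well. Read numbers were recovered from TPM for 37194 of the 43388 genes. These came to 7682563 to 8743290 reads a library on day 6 and 9816603 to 12832660 on day 8, so day 8 was deeper. Mitochondrially encoded genes took 17.3 to 19.6% of TPM on day 6 and 17.9 to 21.8% on day 8. RN7SK, a small nuclear RNA without a poly(A) tail, took 8.1 to 10.0% on day 6 and 7.9 to 9.8% on day 8. That share is high for RNA described as poly(A), and its cause was not tested. Well 4 of day 6 stood apart. Summed TPM of the sarcomere list was 4132 there against 6503, 7159 and 6563 in the other wells of day 6, while its epicardial sum of 414 was the highest of the 4 (337, 267 and 282 in the others). For some genes and lists the value without this well is given beside the result. Values of other genes also depend on this well.

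Of 21 sarcomere genes tested, 11 rose and 0 fell, and 10 did not pass, cardiac troponin T among them. Over all genes tested, 2.61% rose and 1.72% fell. The log2 fold changes ranged from 1.30 to 2.25 among those that rose and from -0.06 (TPM1, a tropomyosin) to 0.92 (MYH6) among the others. The median over the 21 was 1.30, against -0.0022 over all genes. MYL3, an essential light chain of ventricular and slow muscle myosin, measured 216, 271, 242 and 74.5 TPM in the 4 wells of day 6. On day 8 the same gene measured 585, 1333, 1072 and 685 TPM. All day 8 wells lay above all day 6 wells, and the log2 fold change was 2.25 ± 0.42 (SE, 4 wells a day; adjusted p = 0.00527 by limma). MYOZ2, a Z-disc protein that binds calcineurin, went from 18.5, 17.3, 17.3 and 9.96 TPM to 58.1, 68.1, 63.1 and 52.7 TPM, a narrower spread than that of MYL3. Its log2 fold change was 1.89 ± 0.17 (adjusted p = 0.000208 by limma). CSRP3, a muscle LIM protein, rose by 2.11 ± 0.31, and MYOM1, which links thick filaments at the M-band, by 1.91 ± 0.34 on the log2 scale. MYH7, the slow cardiac myosin heavy chain, was at 39.3, 42.9, 41.0 and 16.5 TPM on day 6 and at 60.8, 126, 105 and 67.8 TPM on day 8. It rose by 1.36 ± 0.33 (adjusted p = 0.0177 by limma). Without well 3 of day 8 the MYH7 value was 1.25 with an adjusted p of 0.0503, which is not a call. Fits with other settings or with wells left out gave lower values as well. The lowest were 1.84 for MYL3, 1.66 for MYOZ2, 1.82 for CSRP3, 1.56 for MYOM1 and 1.05 for MYH7.

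TNNT2, the troponin used to class the differentiations (chromosome 1, 201359014 to 201377680, GRCh38), had 1123, 1179, 1074 and 672 TPM on day 6. Its day 8 values were 1328, 1640.1, 1404 and 1071 TPM. The lowest day 8 well lay inside the day 6 range, and the log2 fold change of 0.43 ± 0.19 missed the threshold (adjusted p = 0.125 by limma). Without well 4 of day 6 the TNNT2 value was 0.25. MYH6, the fast cardiac myosin heavy chain, had a log2 fold change of 0.92 ± 0.35 with an adjusted p of 0.0836, although its wells did not overlap, and without well 4 of day 6 the MYH6 value was 0.56. Without well 4 of day 6 the sarcomere list still had 11 genes that rose, with a median of 1.05.

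Regulators of heart development were mixed. Of 18 cardiac transcription factors tested, 3 rose and 1 fell, beside 2.61% and 1.72% of all genes. Their median log2 fold change was 0.16. IRX4, a ventricular factor, went from 0.855, 0.770, 1.57 and 0.302 TPM to 3.88, 6.71, 6.82 and 4.90 TPM and rose by 1.82 ± 0.25. HEY2, a compact myocardium factor of the NOTCH pathway, rose from 7.51 ± 1.63 TPM (SD, n = 4) to 18.7 ± 1.53 TPM. SMYD1, a muscle methyltransferase, rose by 1.14 ± 0.32 (adjusted p = 0.0317 by limma), a call that was lost when any of 5 wells was left out (wells 3 and 4 of day 6 and wells 2, 3 and 4 of day 8), with values from 0.82 to 1.21. TBX3, a factor of the conduction system, fell from 73.3, 82.4, 74.6 and 47.8 TPM to 22.3, 41.8, 40.2 and 28.7 TPM. Its log2 fold change of -1.07 ± 0.22 was -0.98 without well 2 of day 6 and -0.90 without well 1 of day 8, both short of a call. NKX2-5, an early cardiac factor, measured 26.2, 27.5, 25.4 and 7.71 TPM on day 6 and 26.9, 37.0, 37.6 and 28.3 TPM on day 8. Its lowest value was again that of well 4 of day 6, and the change was not called (0.68 ± 0.36, adjusted p = 0.2 by limma). Without that well the NKX2-5 value was 0.27. ISL1, a marker of second heart field progenitors, was at 14.8 ± 4.37 TPM on day 6 and 14.3 ± 1.36 TPM on day 8, with a log2 fold change of -0.01.

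Calcium handling, ion channel and natriuretic peptide genes rose in 6 of 15 cases, beside 2.61% of all genes. SLN was the 1 that fell, beside 1.72%. NPPB, which encodes brain natriuretic peptide, had close values in each group: 57.9, 64.9, 66.1 and 71.2 TPM on day 6, then 227, 320.4, 280.4 and 201 TPM on day 8. The groups were far apart and the log2 fold change was 1.94 ± 0.14 (adjusted p = 7.54e-05 by limma). NPPA, which encodes atrial natriuretic peptide, rose by 2.01 ± 0.40 but from lower levels, 8.18 ± 3.23 TPM on day 6. HCN4, the pacemaker channel, rose from 33.5, 24.6, 29.3 and 30.4 TPM to 76.1, 97.7, 90.3 and 82.9 TPM. TRDN, which anchors calsequestrin at the calcium release channel, rose by 1.61 ± 0.37. Its lowest value over fits with other settings or with wells left out was 1.22. SLN, sarcolipin, an inhibitor of the calcium pump named here after its values were seen, fell from 70.7 ± 32.5 TPM to 24.6 ± 2.58 TPM. Leaving out well 4 of day 6 reduced the count of this list from 6 genes that rose to 4.

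**Figure D1:**
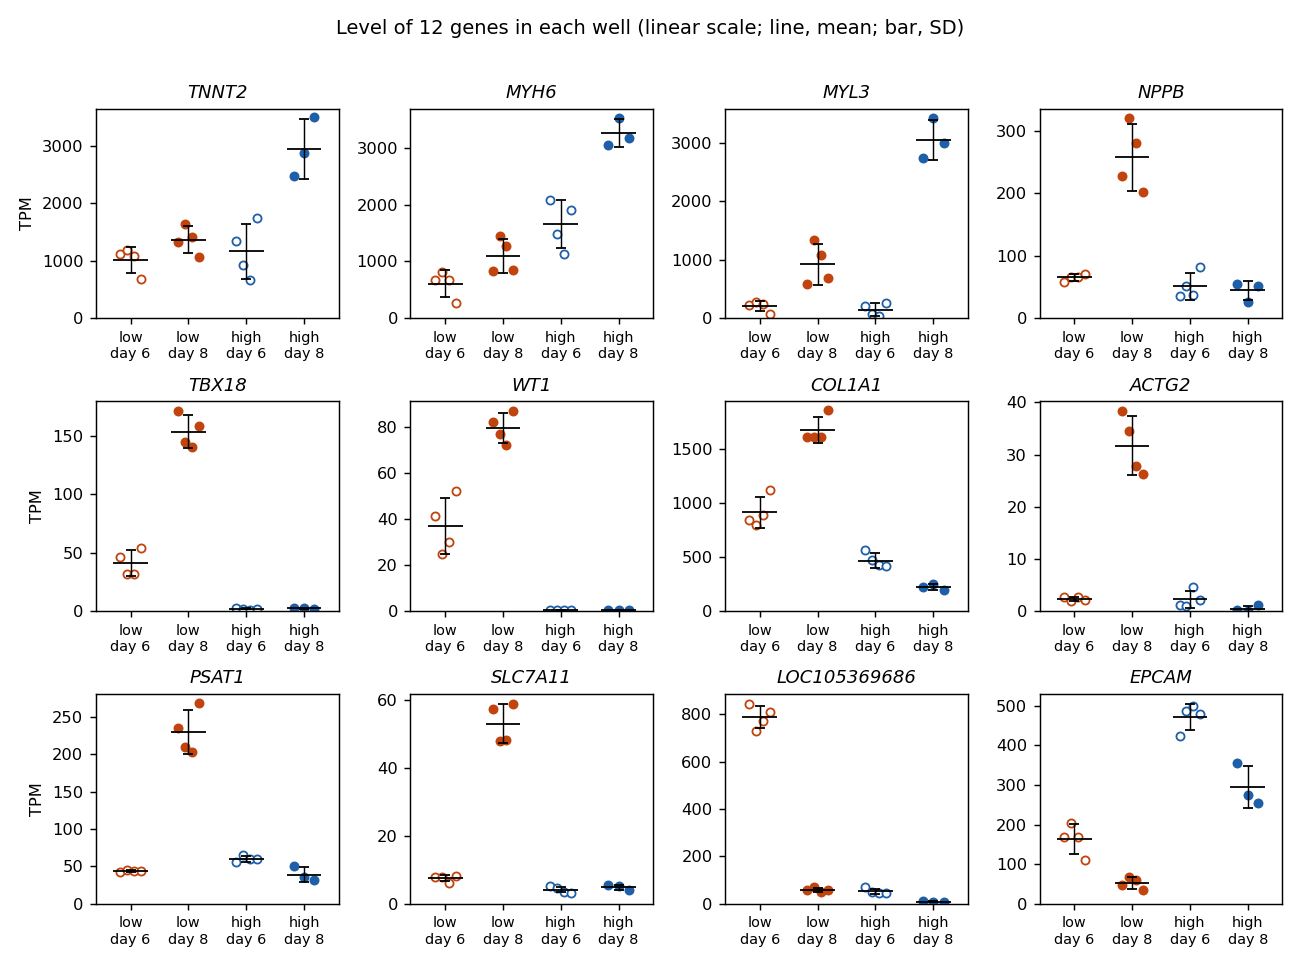
TPM (vertical axis, linear) of 12 genes in each well of day 6 (open points) and day 8 (filled points) of the low and high purity differentiations, with mean lines and SD bars. In the low purity wells MYL3, TBX18 and PSAT1 do not overlap between the days, while TNNT2 does, with well 4 of day 6 lowest at 672 TPM.

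Part of the genes of amino acid supply and of the response to amino acid shortage rose. ATF4 is a transcription factor whose translation increases when the integrated stress response is active, and its known targets include enzymes of serine and one-carbon metabolism, amino acid transporters and feedback regulators. Of 18 list members tested, 10 rose, 0 fell and 8 did not pass, where 2.61% of all genes tested rose. All 18 had wells that did not overlap and lay higher on day 8, against 15.4% of all genes. Their median log2 fold change was 1.10. The remaining member, FGF21, reached at most 1.00 TPM and was not tested. Summed over the list, TPM was 427.5, 447.0, 429.4 and 484.0 in the wells of day 6 and 1260, 1142, 1152 and 1284 in those of day 8. Without well 4 of day 6 the count was 11. The list was chosen with earlier results of these data known.

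Enzymes of serine and one-carbon metabolism were among the members that rose. PSAT1, which makes phosphoserine (chromosome 9, 78297125 to 78330093), measured 42.7, 45.0, 43.5 and 43.8 TPM on day 6 and 236, 209.7, 204 and 269 TPM on day 8. No day 8 well came near the day 6 values, and the log2 fold change was 2.35 ± 0.08 (adjusted p = 4.87e-06 by limma). MTHFD2, a mitochondrial folate enzyme, went from 38.4, 37.2, 39.3 and 43.5 TPM to 167, 160.5, 156 and 185 TPM. SHMT2, which moves a carbon from serine to folate in mitochondria, rose by 1.64 ± 0.07. ALDH1L2, a mitochondrial enzyme of folate metabolism outside the list, was among the genes that rose most, from 2.07, 2.29, 2.29 and 1.50 TPM to 31.0, 27.3, 23.7 and 28.7 TPM. PHGDH, the first enzyme of serine synthesis, had a log2 fold change of 0.56 ± 0.10 and PSPH, the last, of 0.37 ± 0.07. Both had limma adjusted p values under the threshold, 0.00429 and 0.00512, but not the fold change needed for a call.

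Transport and feedback genes of the same list rose as well. SLC7A11, the cystine and glutamate exchanger, had 7.93, 8.02, 6.08 and 8.23 TPM on day 6 and 57.3, 48.0, 48.1 and 58.9 TPM on day 8. This was a log2 fold change of 2.65 ± 0.11 (adjusted p = 5.71e-06 by limma), the highest of the list. TRIB3, a pseudokinase that restrains the stress response, went from 0.961, 1.82, 2.20 and 0.382 TPM to 10.7, 12.8, 13.8 and 11.9 TPM. DDIT4, an inhibitor of the growth kinase mTORC1, rose by 2.50 ± 0.12, and CHAC1, which degrades glutathione, rose by 1.68 ± 0.15 from 0.487 ± 0.182 TPM. ASNS, asparagine synthetase, rose by 1.05 ± 0.19 on 3 to 10 reads a well on day 6. The transcript of ATF4 itself went from 50.5 ± 3.43 TPM to 71.6 ± 6.67 TPM, a log2 fold change of 0.48 ± 0.09 that was not large enough for a call. ATF3, another stress factor, had 0.95 ± 0.17.

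Promoters of the list were searched for the letters TGATGNAA on both strands in the 250 bases before each annotated start, as known binding sites of ATF4 contain such letters. Windows were taken from RefSeq (GRCh38.p14), which held windows for 16 of 19 members; SHMT2, SLC7A11 and PSPH were the others. Of 24 windows of these members, 4 held a match (16.7%), against 3.14% of all 35116 windows. The list was put together around ATF4, so a higher share was built in and supports nothing by itself. Matches lay in ASNS, CHAC1, ATF3, which was not called, and FGF21, which was not tested. The other called members with a window held no match. The windows of ASNS and CHAC1, which rose, are shown because they hold a match in genes called higher on day 8. In ASNS (chr7:97872409-97872658, minus strand) the match, in capitals, lies 68 to 61 bases before the start, and in CHAC1 (chr15:40953221-40953470, plus strand) 209 to 202 bases before it. CHAC1 matches on the other strand. A match is a description of these letters and not a binding site.
ASNS: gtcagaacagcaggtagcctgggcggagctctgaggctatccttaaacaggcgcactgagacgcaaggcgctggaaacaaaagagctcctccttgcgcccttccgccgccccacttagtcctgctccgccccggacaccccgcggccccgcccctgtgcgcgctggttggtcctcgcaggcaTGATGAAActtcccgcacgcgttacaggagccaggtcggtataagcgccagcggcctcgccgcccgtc
CHAC1: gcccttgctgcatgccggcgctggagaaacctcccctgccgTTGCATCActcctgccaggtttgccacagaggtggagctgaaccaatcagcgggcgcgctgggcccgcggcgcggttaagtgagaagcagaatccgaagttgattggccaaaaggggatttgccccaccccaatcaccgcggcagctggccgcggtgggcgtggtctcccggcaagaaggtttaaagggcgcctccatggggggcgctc

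Levels on later days of the same differentiation were lower, which is given as values without a test. Mean TPM of PSAT1 was 43.7 on day 6 and 229.6 on day 8, then 142 on day 10, and by day 13 it was 51.4. SLC7A11 went from 7.57 to 53.1, then 25.2 and 6.25 TPM on the same days. In the high purity wells PSAT1 measured 60.1 ± 3.86 TPM on day 6 (SD, n = 4) and 39.0 ± 9.89 TPM on day 8 (SD, n = 3).

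**Figure D2:**
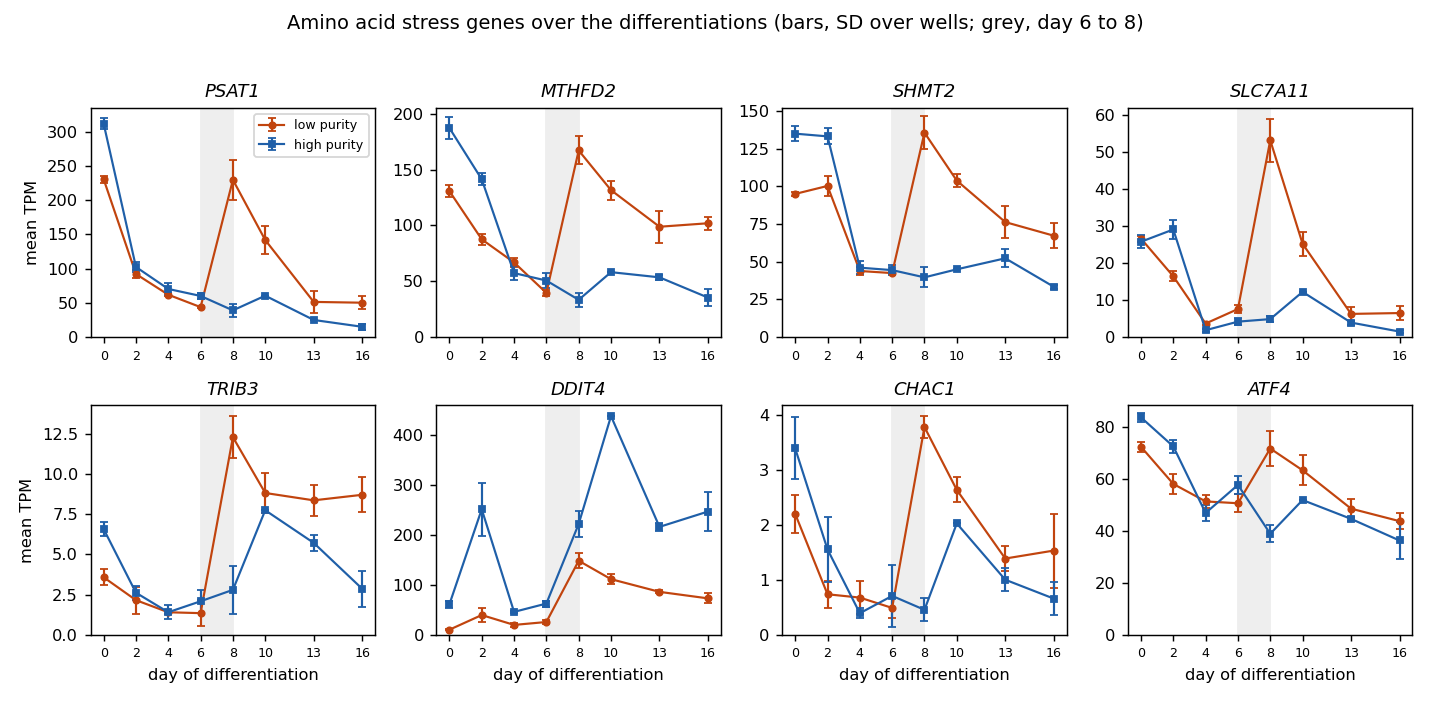
Mean TPM (vertical axis, bars are SD over wells) of amino acid stress genes by day of differentiation (horizontal axis) in low and high purity wells, with the day 6 to 8 interval in grey. PSAT1 of the low purity wells goes from 43.7 TPM on day 6 to 229.6 TPM on day 8 and 51.4 TPM on day 13; day 10 has 1 high purity well and no bar.

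Some epicardial, stromal and smooth muscle markers rose. Of 9 epicardial genes tested 2 rose, of 18 stromal genes 5 rose and of 9 smooth muscle genes 4 rose. Among all genes 2.61% rose and 1.72% fell, and 0 fell in any of the 3 lists. TBX18, a factor of epicardium and sinus node, had 45.9, 31.9, 31.9 and 54.0 TPM on day 6 and 171, 145, 140.3 and 159 TPM on day 8. The wells were far apart and the log2 fold change was 1.91 ± 0.17 (adjusted p = 0.000176 by limma). WT1, another epicardial factor, went from 41.4, 24.7, 30.0 and 52.3 TPM to 82.5, 77.2, 72.3 and 87.0 TPM. It rose by 1.13 ± 0.21, and without well 2 of day 6 the WT1 value was 0.95 and not called. THY1, a surface protein of fibroblasts, rose from 2.21, 2.80, 2.02 and 1.42 TPM to 11.6, 9.26, 8.56 and 10.6 TPM. DCN, the matrix proteoglycan decorin, rose by 1.61 ± 0.28, POSTN, periostin, by 1.33 ± 0.25 and MGP, matrix Gla protein, by 1.59 ± 0.31. COL1A1 and COL3A1, the main fibrillar collagens, had log2 fold changes of 0.87 ± 0.11 and 0.53 ± 0.17 and were not called. Other stromal genes had lower values on day 8: 7 of the 18 had a log2 fold change below 0. In 4 of these the wells did not overlap, where 13.4% of all genes had such lower values. FN1, fibronectin, had 4309 ± 1071 TPM on day 6 and 2446 ± 319 TPM on day 8 (-0.80 ± 0.19), and TWIST1, a mesenchymal transcription factor, had 42.4 ± 5.22 and 21.1 ± 0.518 TPM (-0.98 ± 0.09), neither called. Summed TPM of the stromal list overlapped between the days, at 9399 to 9733 on day 6 and 9392 to 10561 on day 8.

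ACTG2, the gamma smooth muscle actin (chromosome 2, 73893008 to 73919865), had 2.61, 1.88, 2.66 and 2.15 TPM on day 6 and 38.3, 34.4, 27.8 and 26.2 TPM on day 8. This rise of 3.28 ± 0.14 (adjusted p = 9.29e-06 by limma) was the largest in the smooth muscle list. In the same differentiation its mean was 73.4 TPM on day 10 and 220 TPM on day 13, against 31.7 TPM on day 8. DES, desmin, rose by 2.14 ± 0.17, CNN1, calponin, by 1.24 ± 0.08 and TAGLN, transgelin, by 1.14 ± 0.09. In the high purity wells DES also rose, by 2.29. There CNN1 and TAGLN had 0.80 and -0.22, not called, and ACTG2 had -1.02 and was called lower. ACTA2, the alpha smooth muscle actin that early cardiomyocytes also express, had 528 ± 33.6 TPM on day 6 and 762 ± 148 TPM on day 8 (0.50 ± 0.13, not called). Without well 4 of day 6 the counts of these 3 lists did not change.

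Endoderm markers moved in both directions. Of 11 endoderm markers tested 3 rose and 3 fell, beside 2.61% and 1.72% of all genes. TTR, transthyretin, fell from 205, 293, 244 and 136 TPM to 44.2, 78.4, 91.0 and 65.0 TPM, and EPCAM, an epithelial adhesion molecule, from 169, 203, 169.7 and 111 TPM to 48.2, 66.8, 59.4 and 34.2 TPM. Each had a log2 fold change of -1.65. SERPINA1, alpha-1 antitrypsin, rose from 2.53, 2.73, 2.69 and 0.857 TPM to 15.7, 26.3, 27.1 and 19.4 TPM. FGG, the fibrinogen gamma chain, rose by 2.97 ± 0.24, ITIH2, a plasma protein, by 3.27 ± 0.24, and SERPINA5, a protein C inhibitor, by 2.86 ± 0.25. Other plasma protein genes, named after their values were seen, went otherwise: GC, the vitamin D binding protein, fell by 2.28 ± 0.17, while FGA and FGB, the other fibrinogen chains, had 0.53 ± 0.22 and 0.93 ± 0.20 and were not called. APOA1 and APOA2, apolipoproteins of the endoderm list, had -0.45 ± 0.19 and -0.47 ± 0.30, also not called. ALB, albumin, rose by 1.46 ± 0.25 on 1 to 6 reads a well on day 6. TM4SF4, a membrane protein of liver and gut, had 0 to 1 reads on day 6 and 38 to 73 on day 8. KRT7, a keratin of simple epithelium, fell by 1.31, and ESM1, an endothelial secreted protein, also by 1.31 on the log2 scale.

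No gene of the pluripotency, DNA replication or mitosis lists was called. All 6 pluripotency genes tested had negative values with a median of -0.78, and 0 were called. The 15 DNA replication genes had a median of -0.26 and the 15 mitosis genes of -0.27, with 0 called in either list. Of the 15 mitosis genes 2, BUB1 and AURKA, lay above 0. Wells did not overlap and lay lower on day 8 for 5 pluripotency, 9 DNA replication and 9 mitosis genes, against 13.4% of all genes. Limma adjusted p was under 0.05 for 6, 8 and 8 genes of these lists, with changes short of the fold change threshold. MKI67, a marker of cycling cells, went from 139, 137, 132 and 138 TPM to 92.8, 79.7, 80.4 and 81.1 TPM, so the wells did not overlap although its log2 fold change of -0.71 ± 0.06 was not called. CDKN1A, a cell cycle inhibitor, had 0.73 ± 0.09, also not called, while CDKN2B, another such inhibitor, rose by 1.26 ± 0.15.

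Of 23 cholesterol genes tested, 22 had a log2 fold change above 0 and the median was 0.45. In this list 1 gene was called, where 2.61% of all genes rose: INSIG1, a brake on sterol synthesis, rose by 1.28 ± 0.17. Another 15 had a limma adjusted p under 0.05 but not the fold change for a call. Wells did not overlap and lay higher on day 8 for 15 genes of the list, against 15.4% of all genes. HMGCS1, an early enzyme of the pathway, had 0.91 ± 0.07 and was not called. IRS2, an adaptor of the insulin receptor, had -0.18 ± 0.09 (adjusted p = 0.204 by limma), and 0 of 10 genes of the insulin-like growth factor system and 0 of 11 FOXO targets were called, which is close to the 4.33% called over all genes. PDK4, which blocks pyruvate oxidation, fell from 9.34, 10.9, 5.12 and 2.27 TPM to 0.547, 1.57, 0.972 and 1.38 TPM. Of 18 hypoxia and glycolysis genes 4 rose, beside 2.61% of all genes: ALDOC, BNIP3, LDHA and PFKFB4. LDHA, lactate dehydrogenase A, went from 79.6, 90.5, 91.7 and 84.1 TPM to 190.5, 286, 277 and 188 TPM, and BNIP3, a mitophagy receptor, rose by 1.52 ± 0.16. ME1, the malic enzyme, rose by 1.39 ± 0.10.

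Of 16 BMP pathway genes 3 fell, BMP6 and BMP4 among them, beside 1.72% of all genes tested. BMP6, a ligand, fell from 5.62, 5.63, 7.69 and 6.39 TPM to 1.48, 1.24, 1.06 and 0.878 TPM. BMP4, a ligand of mesoderm and heart formation, fell by 1.01 from 297 ± 42.6 TPM, close to the threshold, and its value was -0.91 to -0.99 and not called when well 3 or 4 of day 6 or well 2 or 3 of day 8 was left out. Without well 4 of day 6, BMP6 was the 1 gene of the list that fell. APELA, a ligand of the apelin receptor, fell from 93.5, 99.4, 97.6 and 68.0 TPM to 8.65, 10.4, 10.9 and 10.1 TPM, and its receptor APLNR fell by 1.66 ± 0.12. CYP26A1, which degrades retinoic acid, fell by 1.30 and SP5, a WNT target, by 1.11. The SP5 call was lost when any of 5 wells was left out (wells 2 and 4 of day 6 and wells 1, 3 and 4 of day 8), with adjusted p from 0.0507 to 0.0588 by limma. HEYL, a NOTCH target, rose by 1.45 ± 0.15, whereas LFNG, which modifies NOTCH, fell by 1.33. The immediate early genes EGR1, DUSP1 and JUN rose by 1.32 ± 0.18, 1.16 ± 0.15 and 1.09 ± 0.16, 3 of 13 tested, beside 2.61% of all genes. HAPLN1, a hyaluronan link protein of the 11 matrix proteoglycans tested, fell from 294, 286, 265 and 202 TPM to 66.4, 84.5, 82.0 and 75.4 TPM.

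The lists not yet described had 1 or 2 called genes each, beside 4.33% of all genes tested. Of 10 endothelial, 3 neural and surface epithelium and 2 primitive streak genes tested, 1 each fell: ESM1, KRT7 and APLNR. Of 13 p53 targets and 10 fatty acid synthesis genes 1 each rose, CDKN2B and ME1. Of 12 fatty acid oxidation genes FABP3, a fatty acid binding protein, rose and PDK4 fell. The FABP3 value of 1.00 lay at the threshold and was 0.84 to 0.98 and not called when well 1 or 4 of day 6 or well 2 or 3 of day 8 was left out. Of 13 FGF genes ETV4, a target, and FGF18, a ligand, rose by 1.22 ± 0.23 and 1.05 ± 0.27. The FGF18 call was lost without well 1 or 3 of day 6 or well 2 or 3 of day 8 (0.89 to 1.03, with adjusted p from 0.0536 to 0.058 by limma). SP5 was the 1 gene called of 13 WNT targets, and CYP26A1 of 12 in the retinoic acid list. HEYL and LFNG were the 2 called of 10 NOTCH genes. SPON1, an extracellular matrix protein, was the 1 gene of the matrix proteoglycan list that rose, by 1.09 ± 0.16, and had 0.97 without well 2 of day 6.

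Several of the steepest falls were in long noncoding RNAs. LOC105369686 had 843, 731, 771 and 809.5 TPM on day 6 and 56.5, 69.3, 48.3 and 60.0 TPM on day 8, a log2 fold change of -3.75 ± 0.09 (adjusted p = 3.94e-07 by limma). It lies on chromosome 12, 20192290 to 20212433, and its neighbour LOC105369687, at 20212441 to 20215309, fell by 3.73 ± 0.09. LOC105369688, at 20320816 to 20328654, fell by 3.30 ± 0.20. After these values were seen, the stretch was widened toward higher coordinates only, to the next protein-coding genes. PDE3A, a phosphodiesterase (20368537 to 20688583), fell by 1.40 ± 0.05 and SLCO1C1, a thyroid hormone transporter (20695332 to 20753386), by 1.71 ± 0.14. All 5 genes tested in this stretch were called lower, beside 1.72% of all genes tested. The noncoding RNAs were named for their steep falls and the stretch was set afterwards, so this count supports nothing by itself. Genes on the other side of LOC105369686 were not included, so the extent of the fall was not tested. LOC105370826, on chromosome 15, and PCAT14 fell by 3.41 ± 0.34 and 2.67 ± 0.35. TRH, thyrotropin-releasing hormone, and the noncoding LOC107985182 rose by 3.38 ± 0.27 and 3.30 ± 0.25. Among the most changed genes were also small RNA loci such as MIR3149, MIR5690, MIR627 and MIR3117, which had 0 to 9 reads in each well. In libraries described as poly(A) they carry no information on mature microRNAs.

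**Figure D3:**
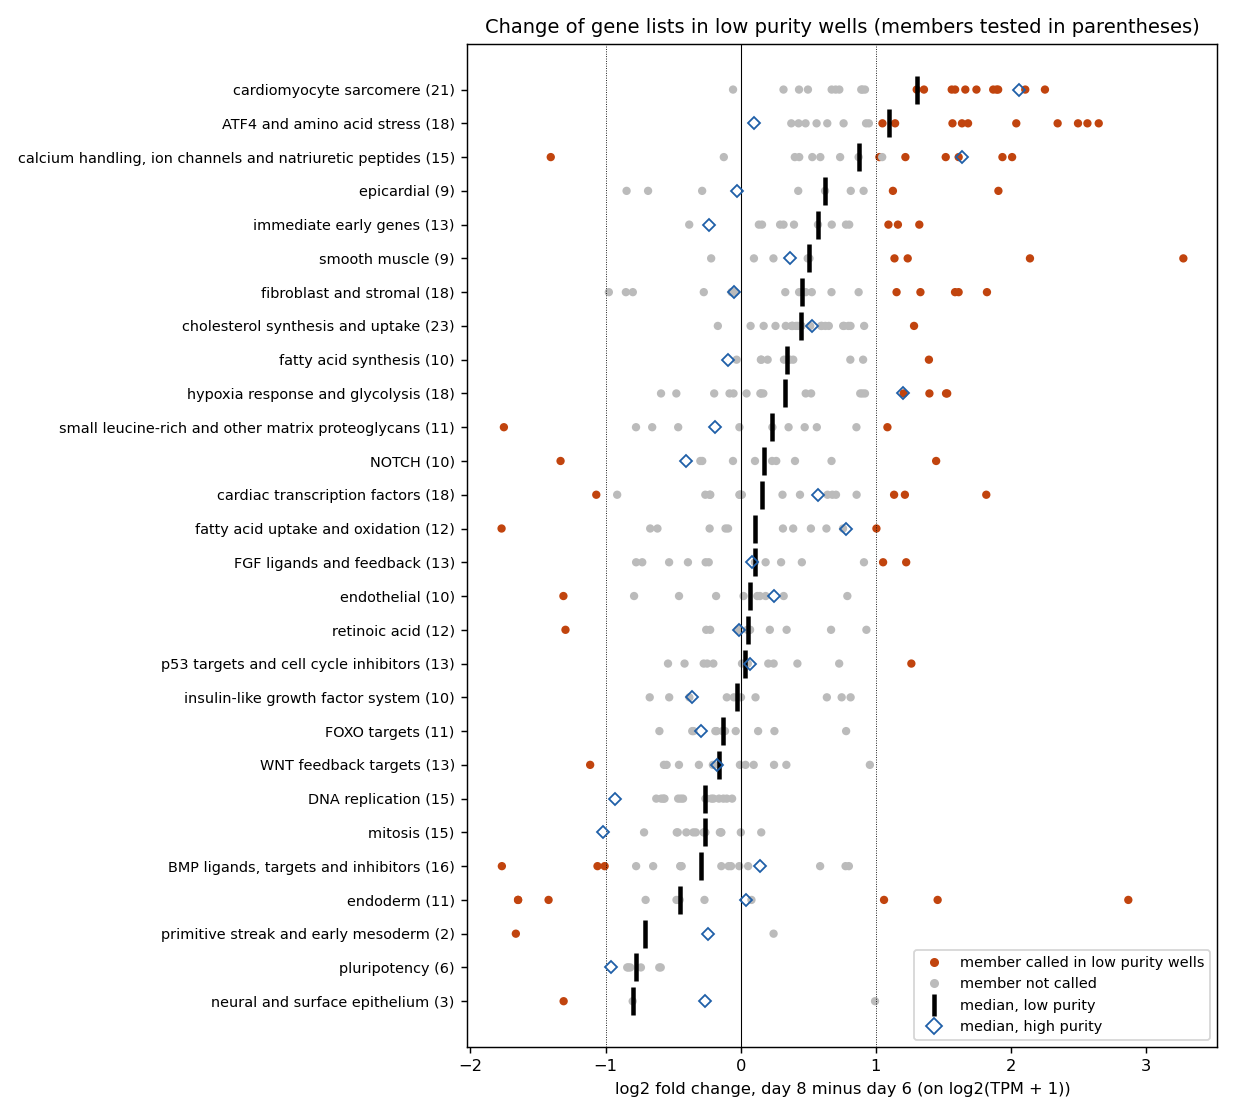
Log2 fold change from day 6 to day 8 in the low purity wells (horizontal axis) for the members of each gene list (vertical axis), with black bars at the low and diamonds at the high purity medians. The amino acid stress list has all 18 members above 0 and the sarcomere list has a median of 1.30.

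The change from day 6 to day 8 was then compared with that of the high purity differentiation, using the difference of the log2 fold changes (low minus high) over 15 wells. In the high purity wells 1278 genes were called (6.41%), 672 higher (3.37%) and 606 lower (3.04%) on day 8. The difference was called for 826 genes (4.14%), with 451 higher in low (2.26%) and 375 lower (1.88%). Scaling matters here: with TPM unscaled, the split was 841 to 222, and the median difference over all genes was 0.24 in place of 0.02. Of the genes that rose in low purity wells, 180 were also called higher in high purity wells, which is 34.5% of the low and 26.8% of the high list. A total of 100 fell in both, 29.2% of the low and 16.5% of the high list.

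Among sarcomere genes with a called difference, the low purity change was the smaller. Of the 21 tested 7 had one, each negative, beside 1.88% of all genes. The list median was 1.30 in low and 2.06 in high purity wells. MYL3 rose by 2.25 in low and 5.06 in high purity wells, a difference of -2.80 ± 0.81 (adjusted p = 0.0338 by limma). MYH7 had -2.22 ± 0.48 and CSRP3 -1.51 ± 0.46. The call for MYL3 was lost in 8 of the 15 fits that each left out 1 well (adjusted p up to 0.0734 by limma), and that for CSRP3 in 10 of them (up to 0.102), while both differences kept their sign. TNNT2 went from 1165 ± 481 to 2952 ± 521 TPM in high purity wells, but the difference of -1.24 ± 0.41 did not pass the test (adjusted p = 0.0585 by limma). IRX4 differed by -2.04 ± 0.46 and TBX3 by -1.19 ± 0.28, the latter not called with TPM unscaled. The IRX4 difference was not called with edgeR or DESeq2 on recovered reads or with a pseudocount of 0.1.

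Among amino acid stress genes with a called difference the order was the opposite. Of 18 tested, 9 had a called difference and in each the low purity change was higher, beside 2.26% of all genes. PSAT1 differed by 2.73 ± 0.16 (adjusted p = 4.6e-07 by limma), MTHFD2 by 2.38 ± 0.13, SLC7A11 by 2.25 ± 0.17 and TRIB3 by 2.11 ± 0.40. DDIT4 rose in both classes, by 2.50 in low and 2.07 in high purity wells, and its difference was not called (0.43 ± 0.20). VLDLR, a lipoprotein receptor, had a difference of -0.52 ± 0.14, below 0.

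Markers of other cells also differed. Of 9 epicardial genes tested, 4 had a called higher change in low purity wells and 0 a lower one. Of 18 stromal genes 5 had a called higher change and 1, LOX, which crosslinks collagen, a lower one. The shares over all genes were 2.26% higher and 1.88% lower. TBX18 (1.49 ± 0.25), WT1 (1.08 ± 0.27), DCN (1.56 ± 0.35) and THY1 (2.07 ± 0.27) had higher changes in low purity wells, though the WT1 difference was 0.90 and not called without well 2 of low purity day 6. The WT1 and DCN differences were also not called with edgeR or DESeq2 on recovered reads or with a pseudocount of 0.1. The high purity levels of TBX18 were 1.80 ± 0.527 and 2.30 ± 0.528 TPM on the 2 days. Mean high purity levels were 0.350 and 0.343 TPM for WT1 and 0.0536 and 0.0793 TPM for DCN. With values this low and a pseudocount of 1, the high purity change of WT1 and DCN was bound to lie near 0. Their differences therefore mostly restate the rise in the low purity wells. COL1A1 differed by 1.68 ± 0.16; in the high purity wells it had 466 ± 69.7 TPM on day 6 and 223 ± 27.1 TPM on day 8. ACTG2 differed by 4.29 ± 0.47. NPPB rose in low purity wells and had 51.0 ± 21.5 and 44.2 ± 15.5 TPM in high purity wells, a difference of 1.88 ± 0.42. TTR and EPCAM had lower changes in low purity wells, by -2.00 ± 0.40 and -1.21 ± 0.29, though the EPCAM difference was not called with TPM unscaled. EGR1 differed by 2.82 ± 0.31. ESM1 fell in low and rose in high purity wells, a difference of -3.11 ± 0.37. In high purity wells 6 of 15 DNA replication and 8 of 15 mitosis genes were called lower, beside 3.04% of all genes. Their high purity medians were -0.93 and -1.02. The difference was called for 1 gene of each of these 2 lists, higher in low purity wells.

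**Figure D4:**
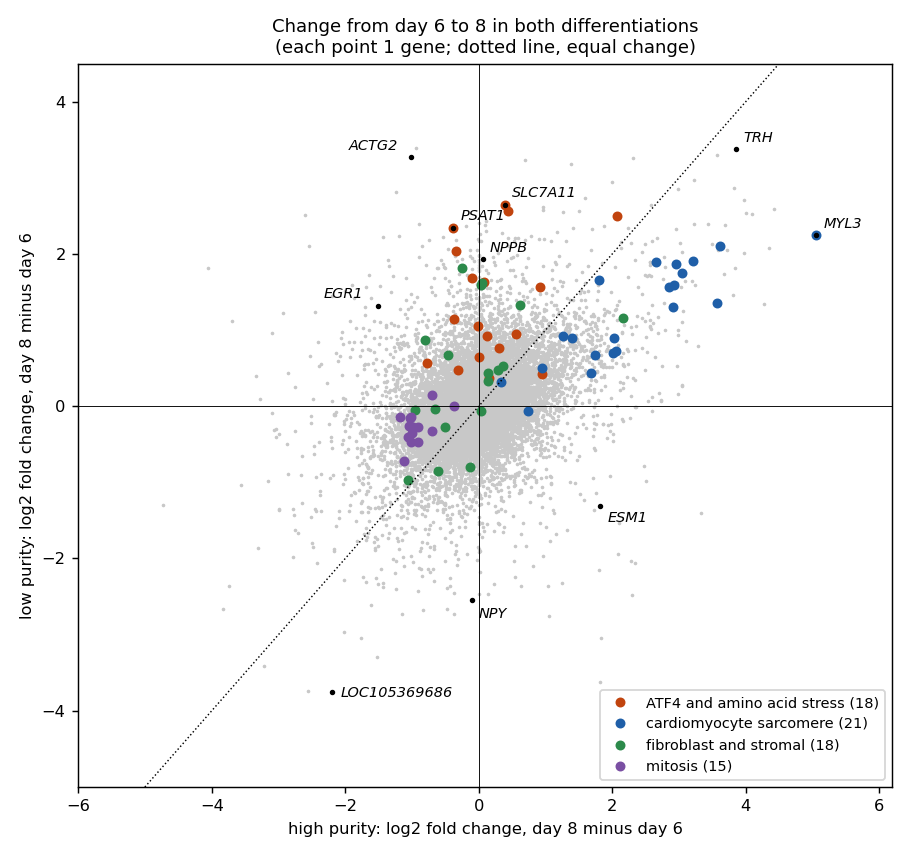
Log2 fold change from day 6 to day 8 of each gene in the high purity wells (horizontal axis) and in the low purity wells (vertical axis), with 4 gene lists coloured and the dotted line at equal change. PSAT1 lies at 2.35 in low and -0.39 in high purity wells, and MYL3 at 2.25 and 5.06.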

How the data were processed

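RNA of WTC11 wells, described as poly(A), was aligned with STAR 2.5.3a to hg38 and counted with featureCounts 2.0.3, per the submitters' processing notes. The authors deposited a table of TPM and a table of read counts for these wells; how TPM was computed and the annotation release are not given in the sources used here. TPM was used. For 0 of 8 wells did the count column of the same name hold the reads behind the TPM column, and for 8 of 8 those reads stood under another name, while the nearest TPM column was of the same group for 8 of 8. Whole reads could be recovered for 37194 of 43388 genes, with gene lengths solved from the authors' deposited counts and TPM of the RNA-only experiment, and give the depths.

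Genes with at least 1 TPM in 3 of the 8 wells were tested. The TPM values, scaled by TMM (edgeR 4.0.16) and taken as log2 after adding a pseudocount of 1, entered limma-trend models (limma 3.58.1, R 4.3.3) over 8 wells for the change and 15 wells for the difference between the classes. Fold changes on this scale understate those of low genes. P-values were adjusted by the Benjamini-Hochberg method over all genes tested. The exact permutation test, two-sided, was used for 5 single values per well (reads and the TPM shares of mitochondrial RNA, RNR2, RN7SK and histone RNA); its smallest p is 0.0286. By this exact test reads had p = 0.0286 (adjusted 0.0714) and mitochondrial RNA p = 0.343. Histone RNA took 1.54 to 2.00% on day 6 and 1.13 to 1.37% on day 8 (exact permutation p = 0.0286, adjusted 0.0714), RN7SK had p = 0.514 and RNR2 p = 0.314.

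The members and the 28 lists (416 genes) were chosen with earlier results of these data known. Named genes were the 12 up and 12 down with the largest change among called genes whose wells did not overlap and with at least 5 TPM, up to 4 called genes of each list, 15 fixed genes, and the 6 in each direction with the largest called difference between the classes; others were named after their values were seen, and some genes that meet the rule are not reported here. Alternatives were another pseudocount (0.1 and 5), RLE or no scaling, leaving out mitochondrial genes and RN7SK, other filters, no fold change threshold, edgeR and DESeq2 1.42.0 on recovered reads, a replicate block, all 56 libraries, each well left out, and both wells 4 left out (added after seeing the data).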

Additional observations from a re-analysis of the deposited data

Results flagged for a closer look

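Over 98 named genes and 4 measures of the libraries (reads and the shares of RNR2, RN7SK and histone RNA), 204 groups of 4 low purity wells were examined, and in 23 of them a single well lay far from the others, by a gap test that marks about 5 percent of groups (1 in 20) by chance. Of these, 9 were in well 4 of day 6. In well 4 of day 6 these were SERPINA1 at 0.857, MYOZ2 at 9.96, MGP at 5.72, TAGLN at 100.4, JUN at 140.0, MYH7 at 16.5, NKX2-5 at 7.71, COL3A1 at 1647 and CGA at 1.46 TPM. In well 1 of day 6 this was MIR4728 at 40.4 TPM. In well 2 of day 6 this was MIR3149 at 15.1 TPM. In well 3 of day 6 these were TM4SF4 at 0, LOC105371687 at 1.45, SLC7A11 at 6.08 and MIR625 at 4.17 TPM. In well 1 of day 8 these were LOC105369687 at 18.9 and MKI67 at 92.8 TPM. In well 2 of day 8 these were LOC105369688 at 15.2 and SP5 at 1.51 TPM. In well 3 of day 8 these were SNORD29 at 3.85, KRT7 at 0.947 and MIR1343 at 11.9 TPM. In well 4 of day 8 this was COL1A1 at 1854 TPM.

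The change from day 6 to day 8 differed between the low and high purity wells for 46 named genes, by the limma test of the difference itself. The values in parentheses are the low purity log2 fold change minus the high purity one. The low purity change was higher for MIR4684 (5.86), SNORD112 (5.10), MIR625 (4.63), MIR3149 (4.30), ACTG2 (4.29), SCARNA14 (4.05), EGR1 (2.82), PSAT1 (2.73) and ALDH1L2 (2.53). It was also higher for SLC7A11 (2.25), TRIB3 (2.11), THY1 (2.07), NPPB (1.88), HEYL (1.83), TM4SF4 (1.77), COL1A1 (1.68), SPON1 (1.59) and DCN (1.56). It was also higher for MGP (1.55), TBX18 (1.49), TAGLN (1.36), ETV4 (1.24), DUSP1 (1.12), ME1 (1.11) and WT1 (1.08). The low purity change was lower for MIR3117 (-5.39), MIR1343 (-4.84), MIR4728 (-4.73), RNU5D-1 (-4.38), SNORD116-5 (-4.29), CGA (-4.0), ESM1 (-3.11), MYL3 (-2.80) and MYH7 (-2.22). It was also lower for LOC105369687 (-2.13), IRX4 (-2.04), TTR (-2.00), PCAT14 (-1.84), FABP3 (-1.78), HLA-B_4 (-1.55), LOC105369686 (-1.55) and FGF18 (-1.52). It was also lower for CSRP3 (-1.51), APELA (-1.26), EPCAM (-1.21) and TBX3 (-1.19). The call was lost in at least 1 fit that left out a well for MIR3149, SNORD112, MIR625, SCARNA14, MIR1343, TM4SF4, MYL3, CSRP3, WT1, MGP, ETV4, FGF18 and DUSP1. The TM4SF4 and MGP differences were also not called with edgeR or DESeq2 on recovered reads or with a pseudocount of 0.1 or 5. Their mean high purity levels on days 6 and 8 were low, 0.127 and 2.19 TPM for TM4SF4 and 0.406 and 0.402 TPM for MGP. The small RNA loci among the genes listed rest on few reads a well, and 1 differentiation stands for each class.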

How the results depend on the processing

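The 864 genes called in the low purity comparison came to 1330 with edgeR and 1248 with DESeq2 on recovered reads, 566 with a filter of 5 TPM, 275 with a pseudocount of 5 and 5337 with no fold change threshold. The 826 genes whose change differed between the classes came to 373 with a pseudocount of 5 and 2734 with no fold change threshold. Leaving out each well in turn gave 784 to 875 and 736 to 932 genes. Of the 864, 781 were called by edgeR, 742 by DESeq2 and 270 with a pseudocount of 5, all in the same direction. With TPM unscaled, 79.1% of the called differences were higher in low purity wells, against 54.6% with TMM. Of 3013 values of named genes under alternatives, 2777 kept their direction and side of the threshold, 229 lost their call, 1 gained one and 6 reversed. All 6 were ISL1, whose log2 fold change of -0.01 was 0.0045 with no scaling, 0.049, 0.12 and 0.029 without wells 1, 2 and 3 of day 6, and 0.027 and 0.029 without wells 1 and 4 of day 8; without well 4 of day 6 it was -0.22. In the low purity comparison, MIR3149, SMYD1, TBX3, WT1, FABP3, SP5, BMP4, FGF18, SPON1 and MYH7 lost their call in at least 1 fit that left out a well. Of 308 list medians under alternatives, 291 moved by less than their spread and 17 by more, and the sign changed in 3. Without both wells 4, 843 genes were called, with 11 sarcomere and 11 amino acid stress genes that rose. A replicate block on well number gave 823 and 749 calls. Same-numbered wells correlated by 0.037 to 0.134, over 0.1 for 1 of 4 numbers, and 1 of 4 day 6 wells matched best with its own number, so the numbers were not taken as pairs and the cause of lost calls was not tested. Genes with at most 10 reads a well are limited by depth.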

Other observations

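The genes below lie outside the lists and were chosen after their values were seen, so their fold changes and p-values are a description and support nothing by themselves. NQO1, an antioxidant enzyme, had 13.5, 10.8, 17.7 and 13.6 TPM on day 6 and 63.4, 59.3, 72.9 and 75.7 TPM on day 8, a rise of 2.21 ± 0.15 on the log2 scale (limma adjusted p = 5.5e-05). It had 15.9 TPM on average on day 10, and the high purity wells had 10.8 ± 0.917 and 13.8 ± 2.46 TPM on days 6 and 8. AKR1B10, an aldo-keto reductase, rose from 3.87 ± 2.04 TPM to 21.6 ± 2.26 TPM. TXNRD1, thioredoxin reductase, and GCLM, a subunit of glutathione synthesis, had 0.77 ± 0.05 and 0.56 ± 0.14 and were not called. HMOX1, heme oxygenase, had 5.29 ± 1.67 TPM on day 6 and 3.17 ± 1.91 TPM on day 8, with overlapping wells and no call.

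INHBE, an activin subunit, rose from 0.943, 0.849, 1.59 and 1.83 TPM to 10.7, 9.44, 6.30 and 12.2 TPM. FAM129A and ASS1, argininosuccinate synthase, rose by 2.18 ± 0.16 and 2.21 ± 0.14. In the high purity wells these 3 genes had log2 fold changes of -0.34, -0.75 and 0.43 and were not called.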
